A study of Mus musculus with 18 samples.

Results

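Expression of 32 astrocyte genes was followed in forebrain, midbrain and hindbrain of mice at postnatal day 25. The genes were chosen by symbol, as markers that astrocytes are known to express, and all 32 were found among the 53468 genes of the deposited count table. They comprised 24 genes listed as pan-astrocyte, 3 as telencephalic (*Lhx2*, *Mfge8* and *Chrdl1*), 3 as brainstem or fibrous (*Agt*, *Gfap* and *Vim*) and 2 as Bergmann glia (*Gdf10* and *Hopx*). The study sequenced poly(A) RNA from 3 Fmr1CRE and 3 wild-type mice, with 1 library for each region of each mouse and so 18 libraries in 6 groups of 3. Fmr1CRE is a knock-in of a base change in a *cis*-regulatory element of *Fmr1*, made by CRISPR on a C57BL/6 background, and CRE here does not stand for a recombinase. Wild-type mice came from the same litter, and no other allele or treatment is named. The tissue was whole dissected region, not sorted cells.

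Astrocytes clear glutamate and potassium, move water at the endfeet that line vessels, share metabolites through gap junctions and secrete lipoproteins and matrix proteins. Most of this machinery is shared by astrocytes throughout the brain, whereas the transcription factors they keep from the territory in which they arose, and some secreted and cytoskeletal proteins, are regional. Bergmann glia are the astrocytes of the cerebellar cortex, which a hindbrain dissection contains, and fibrous astrocytes of white matter are rich in intermediate filaments.

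Libraries held 22455512 to 28061185 counts, and *Fmr1* itself lay between 51.1 and 83.4 CPM, the counts of a gene relative to the total of its library, in all 18. These values are scaled by the trimmed mean of M values (TMM). In midbrain libraries, forebrain and cerebellar markers were also found, and their levels are given beside the genes they touch. The Fmr1CRE and wild-type forebrain libraries labelled replicate 3 were checked against the other regions of the same mice. Genes that reached 1 CPM in any library were taken, with 0.1 CPM added to each value. Of 16 genes over 8-fold apart in the same direction between those mice in both midbrain and hindbrain, 12 (75%) pointed the other way in forebrain. In the other 44 checks of this kind the highest share was 66.7%, which was 4 of only 6 genes. These libraries were used as labelled, and results that rest on them are also given without them. The sequencing pools of the libraries are not named in the labels, and their part in any result was not tested.

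Regions were compared over both genotypes, and a gene was called where its adjusted p in edgeR's quasi-likelihood test was below 0.05. All 32 genes passed the filter on low counts in every comparison. Between forebrain and hindbrain 23 of the 32 were called, 7 higher in forebrain and 16 higher in hindbrain, where 51.7% of the 20363 genes tested were called, 26.4% higher in forebrain and 25.3% higher in hindbrain. A call with at least a 2-fold difference was made for 12 of the 32 (4 higher in forebrain, 8 in hindbrain), against 18.7% of all genes (10.7% and 8.06%). The median log2 difference, forebrain minus hindbrain, was −0.33 over the 32 genes and −0.0085 over all genes. With wild-type libraries alone the median of the 32 was −0.041, with 16 of them below 0, and with Fmr1CRE libraries alone it was −0.49, with 23 below 0. In bulk tissue, fewer cells of a type and less RNA per cell cannot be told apart, so these are differences in the share of a region's RNA. The 6 libraries of a region do not overlap with those of the other for 15 of the 32 genes, and for 27.7% of all genes.

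Of the 3 genes listed as telencephalic, all were higher in forebrain than in hindbrain. *Lhx2* encodes a LIM-homeodomain transcription factor of the developing and adult forebrain that forebrain neurons also express. Its level was 55.4 to 98.5 CPM in forebrain libraries (median 75.1), 41.8 to 63.4 in midbrain (median 49.5) and 0.505 to 2.52 in hindbrain (median 0.602). The hindbrain libraries held 12 to 71 reads of it. The highest of them, Fmr1CRE replicate 1, stood apart from the other 5, which ran up to 0.870 CPM, and all of them were far below every forebrain library. The log2 difference between forebrain and hindbrain was 6.38 (SE 0.31, adjusted p = 1.2e-10 in edgeR), a ratio of 83.4.

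*Chrdl1* encodes a secreted BMP antagonist that astrocytes release and that acts on synapse maturation. It measured 12.7 to 25.2 CPM in forebrain (median 17.1), 4.24 to 8.69 in midbrain (median 6.42) and 2.06 to 4.09 in hindbrain (median 3.23). The 3 regions do not overlap, and forebrain exceeded hindbrain 5.48-fold (log2 2.45, SE 0.22, adjusted p = 1.3e-07 in edgeR). *Mfge8*, a secreted bridge between phosphatidylserine and phagocytes, measured 102.8 to 136.7 CPM in forebrain (median 118), 86.9 to 104.3 in midbrain (median 89.2) and 25.4 to 35.5 in hindbrain (median 29.9). Its log2 difference between forebrain and hindbrain was 1.99 (SE 0.083, adjusted p = 2.6e-11 in edgeR), and every hindbrain library lay below every midbrain library. Of the 5 genes of a further telencephalic list, which includes *Lhx2*, all 5 were called higher in forebrain than hindbrain, with a median log2 difference of 7.20. Among them were *Emx2* (log2 7.40) and *Otx1* (7.20), homeodomain transcription factors of the anterior brain.

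The list named pan-astrocyte held 1 more gene that was over 2-fold higher in forebrain. *Clu*, which encodes the secreted chaperone clusterin, measured 620.9 to 958.3 CPM in forebrain (median 778), 566.9 to 825.5 in midbrain (median 679) and 346.4 to 406.1 in hindbrain (median 369). Forebrain exceeded hindbrain by a log2 of 1.07 (SE 0.096, adjusted p = 1.4e-07 in edgeR), without overlap. *Sox9*, a transcription factor of astrocyte fate, came close to the 2-fold limit, with a mean of 36.9 CPM ± 7.85 (SD, n = 6) in forebrain and 18.7 ± 3.64 in hindbrain (log2 0.97).

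In hindbrain, 8 genes were at least 2-fold higher than in forebrain, and no library of either region overlapped for any of the 8. They include both genes listed for Bergmann glia. *Gdf10*, a secreted TGF-beta family protein, rose from 6.08 to 10.5 CPM in forebrain (median 8.70) to 11.97 to 40.0 in midbrain (median 30.0) and 37.3 to 67.0 in hindbrain (median 56.7). The log2 difference between forebrain and hindbrain was −2.66 (SE 0.24, adjusted p = 1.4e-07 in edgeR), a 6.30-fold higher hindbrain level. *Hopx*, an atypical homeodomain protein without DNA binding, measured 30.3 to 47.4 CPM in forebrain (median 39.7), 45.2 to 61.2 in midbrain (median 51.6) and 91.1 to 141 in hindbrain (median 122). Hindbrain stood apart from both other regions, which overlapped, and the log2 difference between forebrain and hindbrain was −1.62 (SE 0.13, adjusted p = 2.9e-08 in edgeR).

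Of a further Bergmann glia list of 10 genes tested, 6 were called higher in hindbrain and 1 higher in forebrain, with a median log2 difference of −0.62. The largest differences in it were *A2m*, a protease inhibitor (5.20 CPM in forebrain, 42.7 in hindbrain), and *Npy*, a neuropeptide of cortical interneurons (45.2 CPM in forebrain, 7.69 in hindbrain). Markers of cerebellar granule cells, which lie beside Bergmann glia, were called higher in hindbrain for 6 of 6 genes. Their summed level was 74.0 to 99.4 CPM in forebrain, 223.4 to 580.8 in midbrain and 617.2 to 1354 in hindbrain. The part that the amount of cerebellum in a library played in *Gdf10* and *Hopx* was not tested.

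All 3 genes listed as brainstem or fibrous were called higher in hindbrain. *Gfap* encodes the intermediate filament of fibrous and reactive astrocytes. Its level was 174.7 to 256.1 CPM in forebrain (median 231), 258.9 to 339.4 in midbrain (median 296) and 479.7 to 837.4 in hindbrain (median 722). No library of 1 region fell within the range of another, and the log2 difference between forebrain and hindbrain was −1.65 (SE 0.13, adjusted p = 3.0e-08 in edgeR). *Agt* encodes angiotensinogen, the precursor of angiotensin, which astrocytes of the brainstem and hypothalamus make. It measured 20.9 to 63.9 CPM in forebrain (median 46.8), 91.2 to 113 in midbrain (median 101) and 106 to 140 in hindbrain (median 123). Forebrain lay below both other regions, which overlapped. *Vim*, a second intermediate filament that vessels, meninges and ependyma also express, was 1.92-fold higher in hindbrain (59.7 CPM ± 12.7 against 31.1 ± 5.74, SD, n = 6).

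Of the 24 pan-astrocyte genes, 4 were over 2-fold higher in hindbrain. *S100b* encodes a calcium-binding protein that mature oligodendrocytes express as well as astrocytes. It measured 147.3 to 181.1 CPM in forebrain (median 158), 196.4 to 263.1 in midbrain (median 221) and 683.1 to 915.9 in hindbrain (median 732). The 3 regions do not overlap, and with a log2 difference of −2.25 (SE 0.069, adjusted p = 1.7e-12 in edgeR) *S100b* had the smallest p of the 32 genes in this comparison. The oligodendrocyte list moved in the same direction, with 8 of 8 genes called higher in hindbrain and summed levels of 13810 to 17720 CPM in forebrain, 18350 to 21620 in midbrain and 31340 to 43800 in hindbrain. Its part in the *S100b* difference was not tested.

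*Aqp4*, the water channel of astrocyte endfeet, measured 134.9 to 236.4 CPM in forebrain (median 164), 178.9 to 320.1 in midbrain (median 239) and 335.4 to 737.9 in hindbrain (median 435). Forebrain and midbrain overlapped, hindbrain did not, and the log2 difference between forebrain and hindbrain was −1.52 (SE 0.21, adjusted p = 1.7e-05 in edgeR). *Sparc* encodes a secreted matrix glycoprotein that vessels also make. It measured 301.1 to 796.9 CPM in forebrain (median 729), 1001 to 1295 in midbrain (median 1197) and 1287 to 2024 in hindbrain (median 1796), a log2 difference of −1.43 (SE 0.17) between forebrain and hindbrain. The value of 301.1 belongs to Fmr1CRE forebrain replicate 1, and the next lowest was 504.1. The endothelium and pericyte list, with 2 of 8 genes called in each direction, summed to 271.8 to 391.2 CPM in forebrain and 319.5 to 387.9 in hindbrain. *Itih3*, a hyaluronan-binding serum protein family member, ran from 29.7 to 50.9 CPM in forebrain (median 47.4), 55.6 to 75.7 in midbrain (median 62.7) and 84.1 to 115 in hindbrain (median 97.0). Each region was apart from the next, in the order forebrain, midbrain and hindbrain.

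**Figure D1:**
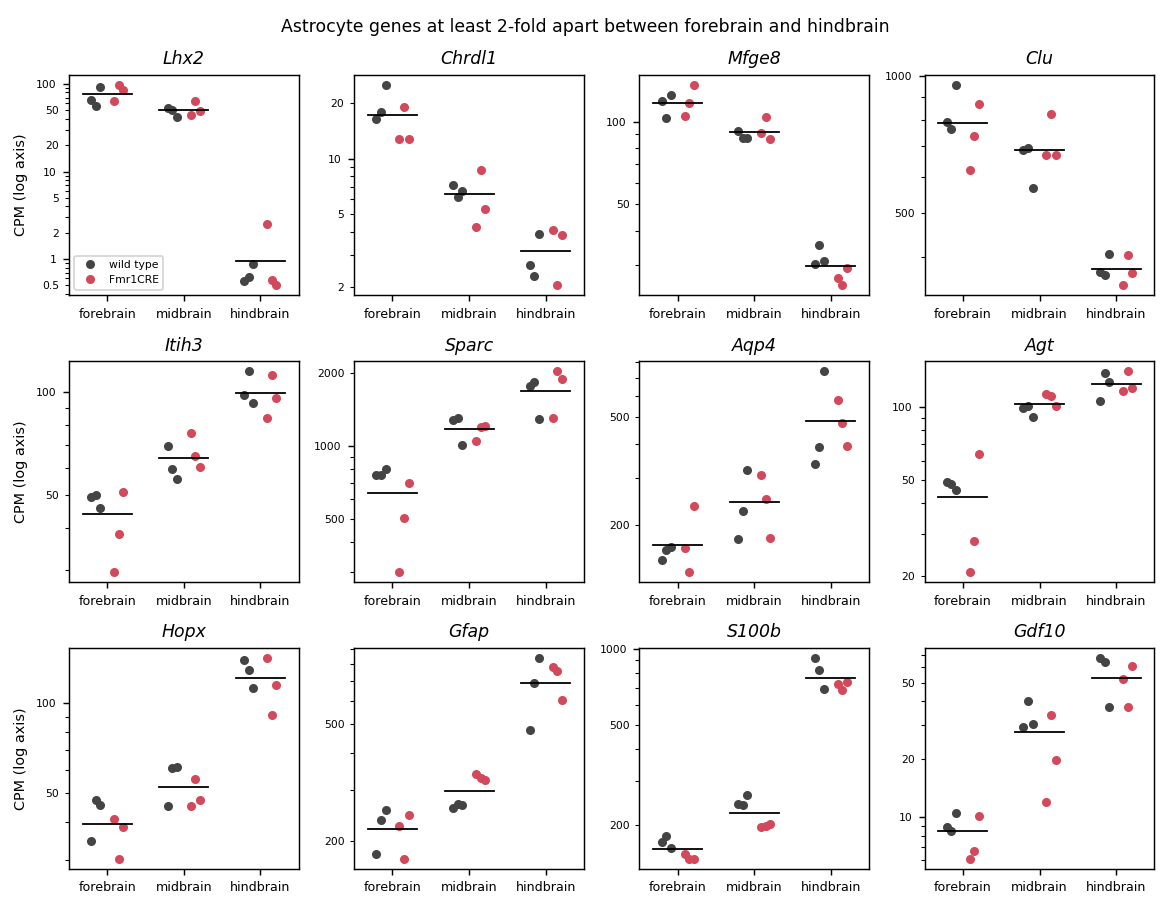
Level of the 12 astrocyte genes that differed at least 2-fold between forebrain and hindbrain, in CPM on a log axis, with 1 point a library (grey for wild type, red for Fmr1CRE) and a bar at the mean of the 6 libraries of a region. *Lhx2* is close to 0.6 CPM in hindbrain except 1 library at 2.52, and *S100b* separates hindbrain at 683.1 CPM or more from both other regions.

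The promoters of some of the genes at least 2-fold apart in each direction are shown so that what they share in sequence can be read beside these values. *Hopx* has listed starts but is not printed. RefSeq starts (GRCm38.p6) were found for 27 of the 32 genes, and none was listed for *Aqp4*, *Chrdl1*, *Clu*, *Sox9* and *Sparcl1*. Each line holds the 140 bases before the start, read 5′ to 3′ on the strand of the gene, with capitals for letters that match a searched motif on either strand. The genes higher in forebrain are *Lhx2* at chr2:38339141-38339280 (plus strand) and *Mfge8* at chr7:79149061-79149200 (minus strand). Those higher in hindbrain are *Gdf10* at chr14:33923447-33923586 (plus), *S100b* at chr10:76253696-76253835 (plus), *Gfap* at chr11:102897201-102897340 (minus) and *Agt* at chr8:124569707-124569846 (minus).
Lhx2: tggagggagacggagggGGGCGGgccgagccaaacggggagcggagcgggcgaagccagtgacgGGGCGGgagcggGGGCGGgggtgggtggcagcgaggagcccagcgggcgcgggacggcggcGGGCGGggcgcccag
Mfge8: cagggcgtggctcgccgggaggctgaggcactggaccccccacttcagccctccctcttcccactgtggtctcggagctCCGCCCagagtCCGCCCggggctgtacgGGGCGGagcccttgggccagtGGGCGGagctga
Gdf10: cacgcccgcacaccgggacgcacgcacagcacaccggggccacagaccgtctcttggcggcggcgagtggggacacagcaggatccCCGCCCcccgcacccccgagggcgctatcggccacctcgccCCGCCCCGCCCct
S100b: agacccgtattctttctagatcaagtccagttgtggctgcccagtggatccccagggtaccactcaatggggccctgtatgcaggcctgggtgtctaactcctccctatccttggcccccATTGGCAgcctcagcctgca
Gfap: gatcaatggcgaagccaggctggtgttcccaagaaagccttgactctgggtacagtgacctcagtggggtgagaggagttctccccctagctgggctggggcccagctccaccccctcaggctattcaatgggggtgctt
Agt: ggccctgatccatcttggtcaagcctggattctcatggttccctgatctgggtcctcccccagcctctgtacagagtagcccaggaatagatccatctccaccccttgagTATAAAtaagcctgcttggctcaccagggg

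The motifs searched in the 250 bases before each start were the GC box GGGCGG, the CCAAT box CCAAT, the TATA box TATAAA, the NFI motif TTGGCA and the SOX motif AACAAT, with their reverse complements. A gene was counted where any of its starts held the motif, and the 27 astrocyte genes had 40 starts. A GC box was found for 15 of the 27 genes and for 35.4% of the 27025 genes of the table. CCAAT was found for 12 of 27 and for 37.5% of genes, TATAAA for 5 and 14.3%, TTGGCA for 5 and 14.1%, and AACAAT for 1 and 10.9%. A gene with more starts has more chances to match. Counted by start, the GC box was in 19 of the 40 and in 32.7% of the 32851 starts of the table. By start CCAAT was in 14 and 33.8%, TATAAA in 6 and 12.4%, TTGGCA in 5 and 12.3%, and AACAAT in 1 and 9.42%. In *S100b* the CCAAT match, read as ATTGG, and the TTGGCA match share letters. Promoters of *Lhx2* and *Mfge8* held GC boxes, as did those of 2 of the 7 genes with a listed start that were at least 2-fold higher in hindbrain. Before the printed starts, the GC content of the 250 bases was 72.8% for *Lhx2*, 65.2% for *Mfge8* and 78.8% for *Gdf10*. It was 53.6% for *S100b* and 55.6% for both *Gfap* and *Agt*, against a median of 52.4% over all starts. *Lhx2* had another listed start, not printed, with a GC content of 68.4%. A match is a description of letters, not evidence of binding.

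Among the 24 pan-astrocyte genes, 4 were called higher in forebrain, 11 higher in hindbrain and 9 in neither direction, with a median log2 difference of −0.13. Of all genes, 26.4% were called higher in forebrain and 25.3% higher in hindbrain. The genes of gap junctions and transport fall on both sides of the threshold. *Gja1*, the main astrocyte connexin, measured 173 to 277.9 CPM in forebrain and 165.1 to 304.9 in hindbrain, a log2 difference of 0.066 with a 95% confidence interval from −0.26 to 0.39. *Gjb6*, a second astrocyte connexin, was not called (log2 −0.30, adjusted p = 0.060 in edgeR). It was called with the mouse as a block, with DESeq2, with DESeq2's size factors and with total counts alone. It was also called with at least 10 counts in every library and without both forebrain libraries labelled replicate 3. Without a filter, or with the libraries of either genotype alone, it was not called. *Mlc1*, a membrane protein of the endfoot, differed by 0.13 (interval −0.041 to 0.29), and *Slc4a4*, a sodium bicarbonate cotransporter, by 0.29 (interval −0.11 to 0.70). *Kcnj10*, the Kir4.1 potassium channel that clears potassium, was higher in hindbrain over both genotypes (log2 −0.55, SE 0.14), but was not called with wild-type libraries alone (−0.32, SE 0.13). *Slc7a10*, a neutral amino acid transporter of astrocytes, was also higher in hindbrain (−0.74, SE 0.11).

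The metabolic genes divided likewise. *Aldoc*, the brain aldolase of glycolysis, was 1430 to 1660 CPM in hindbrain (median 1532), 853.3 to 1063 in midbrain (median 1004) and 753.1 to 1126 in forebrain (median 903), with log2 −0.75 (SE 0.077) between forebrain and hindbrain. The Purkinje cell list was called higher in hindbrain for 5 of 6 genes (median log2 −3.63), and its part in the *Aldoc* difference was not tested. *Etnppl*, a phosphoethanolamine lyase, was also higher in hindbrain (−0.54, SE 0.19). *Aldh1l1*, the folate enzyme used as a general astrocyte marker, was called higher in forebrain at the threshold (0.39, SE 0.16, adjusted p = 0.0498 in edgeR) and was not called with the mouse as a block, with DESeq2's size factors or with total counts alone. *Acsl6*, a fatty acid ligase, differed by 0.078 (interval −0.078 to 0.23), and *Cbs*, the transsulfuration enzyme, by 0.18 (interval −0.19 to 0.56).

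Secreted and signalling genes completed the list. *Apoe*, the lipoprotein that carries cholesterol from astrocytes, measured 1264 to 1862 CPM in forebrain (median 1687), 1305 to 1677 in midbrain (median 1384) and 1252 to 1671 in hindbrain (median 1464). All regions overlapped, and forebrain differed from hindbrain by 0.18 (interval −0.018 to 0.37). Microglia also express *Apoe*, and the microglia list, with 7 of 7 genes called higher in forebrain, summed to 274.9 to 388.6 CPM there and 136.0 to 167.4 in hindbrain. *Sparcl1*, a secreted synaptogenic protein, was higher in hindbrain (−0.48, SE 0.091). *Il33*, an alarmin cytokine held in nuclei, was called higher in hindbrain over both genotypes (−0.54, SE 0.11), but with wild-type libraries alone it was at 0.048 (SE 0.16) and was not called. *Ndrg2* encodes a cytoplasmic protein abundant in astrocytes. It measured 611.8 to 1183 CPM in forebrain (median 876), 819.7 to 1143 in midbrain (median 1009) and 867.7 to 1383 in hindbrain (median 1146), a called difference (−0.37, SE 0.13, adjusted p = 0.030 in edgeR) despite the overlap. *Id4*, an inhibitor of basic helix-loop-helix factors, was higher in forebrain (0.50, SE 0.089). Neither of 2 receptors was called, with *Ntsr2*, a neurotensin receptor, at 0.046 (interval −0.12 to 0.21) and *Fgfr3*, a receptor for fibroblast growth factors, at 0.15 (interval −0.18 to 0.48).

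Some calls and signs depended on genotype and scaling. With wild-type libraries alone 21 of the 32 genes were called between forebrain and hindbrain, where 42.7% of all genes were. Of the 21, 9 were higher in forebrain and 12 higher in hindbrain. *Kcnj10*, *Ndrg2* (−0.13), *Etnppl* (−0.21) and *Il33* were not among them, and *Slc4a4* (0.73) and *Mlc1* (0.26) were. With Fmr1CRE libraries alone 21 were also called (31.8% of all genes), 5 higher in forebrain and 16 higher in hindbrain, without *Aldh1l1* and *Id4*. None of the 32 was called over the 18 libraries in the test of whether genotype and region interact. With total counts alone, *Gja1* was at −0.068 and *Ntsr2* at −0.095, and the median of all genes shifted to −0.15. Per kb of transcript, the order of levels also depended on the length used. *Apoe*, *Ndrg2*, *Sparcl1*, *Sparc*, *Aldoc* and *Clu* were the 6 highest by both the length weighted over expressed transcripts and the longest transcript. *Apoe* led by the longest transcript, with a mean of 1076 CPM per kb over 18 libraries, and was close to *Aldoc* by the weighted length (2063 and 2106 CPM per kb). *Sox9*, *Gdf10* and *Chrdl1* were lowest by both.

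**Figure D2:**
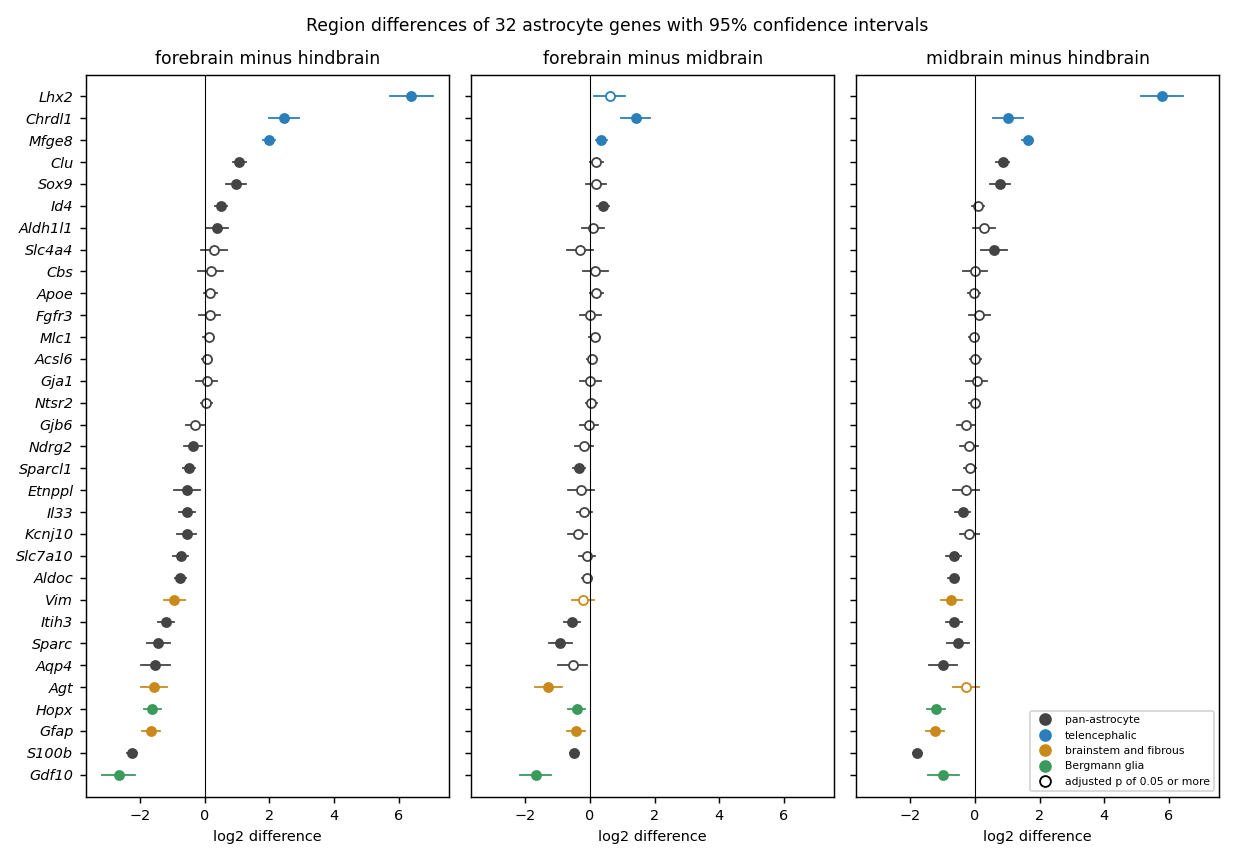
Log2 difference of each of the 32 astrocyte genes between regions, with 95% confidence intervals from the edgeR fit of 18 libraries, coloured by list (pan-astrocyte grey, telencephalic blue, brainstem and fibrous ochre, Bergmann glia green) and open where the gene was not called. *Lhx2* lies furthest to the forebrain side, at 6.38 against hindbrain, and *Gdf10* furthest to the other, at −2.66.

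A further list of 48 astrocyte genes, none of them among the 32, gave 18 higher in forebrain, 12 higher in hindbrain and 18 not called, with a median log2 difference of 0.10. It shares *Fabp7* and *Slc1a3* with the further Bergmann glia list. *Slc1a2*, the glial glutamate transporter GLT-1, averaged 3563 CPM ± 992 (SD, n = 6) in forebrain and 944 ± 216 in hindbrain (log2 1.91), the opposite direction to *S100b*. *Slc6a9*, a glycine transporter of astrocytes, was higher in hindbrain (42.8 CPM ± 9.54 against 132.9 ± 38.8). Of 5 further brainstem genes, which include *Slc6a9* and *Slc6a11* of the 48, 4 were called higher in hindbrain. Among them were *Irx2* and *Irx5*, homeodomain factors of the caudal brain. Of 23 genes of a reactive astrocyte list that were tested, 13 were called higher in hindbrain and 2 higher in forebrain. *C3*, a complement component, averaged 0.814 CPM in forebrain and 7.93 in hindbrain, and choroid plexus (5 of 8 genes called, 925 to 3266 CPM summed in hindbrain, 385 to 884 in forebrain) and blood markers (5 of 5 genes called, 1058 to 2709 CPM against 506 to 1547) were higher in the same libraries. Their part in this list was not tested.

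Between forebrain and midbrain, 11 of the 32 genes were called, 3 higher in forebrain and 8 higher in midbrain, where 19.3% of all genes were called, 9.38% and 9.96% by direction. A 2-fold call was made for *Chrdl1* (log2 1.42, SE 0.21), *Gdf10* (−1.68, SE 0.23) and *Agt* (−1.28, SE 0.19), 3 of 32 against 4.09% of all genes, 1.82% higher in forebrain and 2.27% higher in midbrain. *Sparc* (−0.91), *Itih3* (−0.56), *S100b* (−0.47), *Gfap* (−0.42), *Hopx* (−0.41) and *Sparcl1* (−0.33) were also higher in midbrain, and *Id4* (0.41) and *Mfge8* (0.36) higher in forebrain. *Lhx2* was not called (0.61, SE 0.23, adjusted p = 0.074 in edgeR). The median over the 32 genes was −0.088 and over all genes 0.023, and the libraries do not overlap for 7 of the 32 and 10.5% of all genes. The median of the 32 turned to 0.055 with wild-type libraries alone (19 of 32 above 0) and was −0.18 with Fmr1CRE libraries alone. It was −0.17 without both forebrain libraries labelled replicate 3, −0.14 without the wild-type one of them, and −0.036 without Fmr1CRE forebrain replicate 1. *Gfap* and *Hopx* were no longer called without wild-type forebrain replicate 1, Fmr1CRE forebrain replicate 2 or wild-type midbrain replicate 2. With wild-type libraries alone 6 were called (8.89% of all genes), and with Fmr1CRE libraries alone 2, *Agt* and *S100b* (2.71% of all genes).

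Between midbrain and hindbrain, 17 of the 32 were called, 6 higher in midbrain and 11 higher in hindbrain, against 49.1% of all genes, 25.1% and 24% by direction. At 2-fold these were *Lhx2* (5.77), *Mfge8* (1.63) and *Chrdl1* (1.03) in midbrain and *S100b* (−1.78), *Gfap* (−1.23) and *Hopx* (−1.21) in hindbrain, 6 of 32 against 14.8% of all genes, 8.49% higher in midbrain and 6.27% higher in hindbrain. *Agt* was not called (−0.28, interval −0.68 to 0.12), but was called higher in hindbrain with wild-type libraries alone (−0.36, SE 0.11) and without both forebrain libraries labelled replicate 3 (−0.27, SE 0.088). With Fmr1CRE libraries alone 12 of the 32 were called, where 24.9% of all genes were. The median over the 32 genes was −0.16 (−0.083 without Fmr1CRE hindbrain replicate 2 and −0.11 without wild-type midbrain replicate 3) and over all genes −0.030, and libraries do not overlap for 12 of the 32 and 26.9% of all genes.

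Midbrain levels of the regional genes were read beside those of neuronal markers. Mean midbrain level was 65.4% of the forebrain level for *Lhx2*, 78% for *Mfge8* and 36.9% for *Chrdl1*. For transcription factors of the forebrain it was 57.9% for *Emx1*, 61.9% for *Tbr1* and 98.7% for *Neurod6*. As a share of the hindbrain level, midbrain held 51.8% for *Gdf10*, 43.4% for *Hopx*, 43% for *Gfap* and 29.3% for *S100b*. The granule cell genes *Gabra6*, *Cbln3*, *Neurod1*, *Zic1*, *Fat2* and *Zic2* were at 32.7%, 42.1%, 48.2%, 49.1%, 65.8% and 67.8%. *Hoxa5* was at 0.557% and *Hoxb5* at 1.86%. Over midbrain libraries *Gdf10* measured 11.97, 33.8 and 19.8 CPM in Fmr1CRE replicates 1 to 3 and 29.5, 40.0 and 30.5 in wild type, where the granule cell sum was 223, 581 and 305 and 287, 524 and 494 CPM. The lowest of both was Fmr1CRE replicate 1. In hindbrain *Gdf10* was lowest at 37.3 CPM in Fmr1CRE replicate 2 and 37.5 in wild-type replicate 3, which also had the lowest granule cell sums, 621 and 617 CPM. The part of forebrain or cerebellar tissue in the midbrain levels was not tested.

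**Figure D3:**
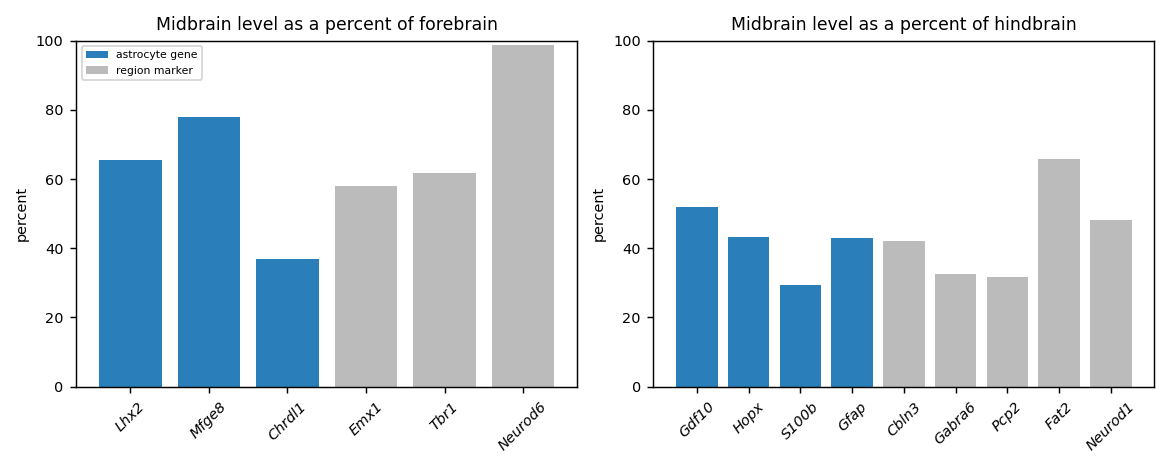
Mean midbrain level of astrocyte genes (blue) and region markers (grey) as a percent of their mean level in forebrain (left) and hindbrain (right), over 6 libraries a region. *Lhx2* at 65.4% lies close to *Tbr1* at 61.9%, and *Gdf10* at 51.8% lies between *Cbln3* at 42.1% and *Fat2* at 65.8%.

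Genotypes were compared within each region, 3 Fmr1CRE libraries against 3 wild-type libraries. None of the 32 genes was called by edgeR in forebrain, midbrain or hindbrain or with the 3 regions of a mouse summed, where 0%, 0.00543%, 0% and 0.00451% of all genes were called. DESeq2 called 2 of the 32 in forebrain (0.168% of all genes), 1 in midbrain (0.337%) and none in hindbrain (0.309%) or in the sum (0.117%). At an unadjusted p under 0.05 the counts were 5 in forebrain (5.43% of all genes), 2 in midbrain (6.17%), 0 in hindbrain (5.13%) and 4 in the sum (3.7%). These counts moved with single libraries. In midbrain they ran from 2 to 8, with 8 without wild-type replicate 3 (11.9% of all genes), 6 without Fmr1CRE replicate 2 (5.19%) and 4 without Fmr1CRE replicate 1. In hindbrain they ran from 0 to 5, with 5 without wild-type replicate 3 (12.2%), 2 without Fmr1CRE replicate 1 and 1 without Fmr1CRE replicate 2. In the sum they ran from 0 to 4, with 0 without wild-type replicate 2 (2.27%), 1 without wild-type replicate 1 (3.21%) and 2 without Fmr1CRE replicate 2. With 1 fit of all libraries they were 11 in forebrain (7.84%), 1 in midbrain (4.68%) and 1 in hindbrain (6.79%).

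In forebrain all 5 of these were lower in Fmr1CRE, a direction and p that 2.39% of all genes had. *Il33* measured 12.9, 13.9 and 18.5 CPM in the Fmr1CRE libraries and 28.4, 30.4 and 24.7 in wild type. Every Fmr1CRE library was below every wild-type library, with a log2 difference of −0.86 (SE 0.16, unadjusted p = 0.00066, adjusted p = 0.81 in edgeR and 0.0050 in DESeq2). In midbrain the log2 difference of *Il33* was 0.038 (SE 0.11) and in hindbrain 0.31 (SE 0.17), where the libraries overlapped. Whether the genotype difference varied among regions was tested in edgeR over 18 libraries, where 0% of all genes were called and 7.54% had an unadjusted p under 0.05. For *Il33* the unadjusted p was 0.00018 and the adjusted p 0.38. Without both mice numbered 3 the adjusted p was 0.029. In that fit 0.636% of all genes were called and 19.8% had an unadjusted p under 0.05. Over the 18 libraries *Acsl6* was the only other of the 32 with an unadjusted p under 0.05 (adjusted p = 0.66 in edgeR). Within Fmr1CRE libraries the log2 difference of *Il33*, forebrain minus hindbrain, was −1.18 (SE 0.15), and within wild-type libraries 0.048 (SE 0.16).

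*Etnppl* measured 25.4, 45.1 and 35.6 CPM in Fmr1CRE forebrain and 58.6, 70.6 and 77.1 in wild type, again without overlap (log2 −0.93, SE 0.21, unadjusted p = 0.0021, adjusted p = 0.81 in edgeR and 0.026 in DESeq2). The other genes at an unadjusted p under 0.05 were *Ndrg2* (log2 −0.54, SE 0.13), *Aldh1l1* (−0.55, SE 0.21) and *Sparc* (−0.60, SE 0.25). Over all 32 genes, 27 had a difference below 0 in forebrain (49.9% of all genes did), the median was −0.23 against 0.00095 over all genes, and libraries did not overlap for 9 (10.3% of all genes), all 9 lower in Fmr1CRE (5.99% of all genes). Of the 48 further astrocyte genes, 36 were below 0, with a median of −0.22. Lists of other cell types also lay below 0 in forebrain, with 7 of 8 endothelium and pericyte genes (median −0.23), 6 of 7 microglia genes (−0.13) and 5 of 7 meninges and fibroblast genes (−0.23). Of the neuron list 7 of 10 were below 0 (median −0.022), and of the oligodendrocyte list 4 of 8 (−0.025). The part of these other cells in the astrocyte values was not tested. In these bulk data the 32 genes share their libraries, so they are not replicates of the genotype.

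Some forebrain libraries stood at the ends of the range for many genes at a time. Fmr1CRE forebrain replicate 1 was the lowest of the 6 forebrain libraries for 25 of the 32 genes, as it was for 31.6% of all genes, and wild-type replicate 3 was the highest for 18, against 14.8% of all genes. In Fmr1CRE replicate 1 *Slc4a4* was at 107.8 CPM where the other 5 libraries held 230.1 to 356.5. That library also had the highest forebrain sums of blood (1547 CPM) and choroid plexus markers (884 CPM) and the lowest sum of neuronal markers (4938 CPM). Without it the median was −0.15 and 4 genes were at an unadjusted p under 0.05, where 3.25% of all genes were. Without wild-type replicate 3 the median was −0.16 and 4 of the 32 were, where 3.81% of all genes were. Without both forebrain libraries labelled replicate 3 the median was −0.25 and 7 of the 32 were, where 13.6% of all genes were. Without Fmr1CRE replicate 3 alone it was 13 of 32, where 16.9% of all genes were.

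In midbrain, *Gfap* measured 339.4, 328.1 and 323.1 CPM in Fmr1CRE and 258.9, 268.5 and 265.2 in wild type. The genotypes do not overlap, and the log2 difference was 0.32 (SE 0.076, unadjusted p = 0.0033, adjusted p = 0.71 in edgeR and 0.018 in DESeq2). *S100b* measured 196.4, 198.4 and 201.3 CPM in Fmr1CRE and 242.9, 241.4 and 263.1 in wild type, without overlap and in the opposite direction (log2 −0.33, SE 0.082, unadjusted p = 0.0043, adjusted p = 0.75 in edgeR). *S100b* was also below wild type in every Fmr1CRE forebrain library (log2 −0.17, SE 0.10), but overlapped in hindbrain (−0.19, SE 0.13). For *Gfap* the difference was −0.026 (SE 0.17) in forebrain and 0.088 (SE 0.20) in hindbrain. The genotype difference in midbrain was below 0 for 7 of 8 midbrain markers (median −0.57) and 6 of 6 Purkinje cell genes (−0.41). It was below 0 for 6 of 6 granule cell genes (−0.26), 7 of 8 oligodendrocyte genes (−0.087) and 8 of 10 neuron genes (−0.11). Above 0 were 7 of 7 microglia genes (0.24) and 6 of 8 choroid plexus genes (0.45). The part of these other cells in the *Gfap* and *S100b* values was not tested. A lower level in Fmr1CRE with an unadjusted p under 0.05 was found for 3.35% of all genes. Libraries did not overlap for 3 of the 32 genes (11.3% of all genes), 1 of them lower in Fmr1CRE (4.91%), and the third was *Agt* (0.17, higher in Fmr1CRE). Of the 32, 19 were below 0 (51% of all genes), and the median was −0.074, and without single libraries it ran from −0.14 (wild-type replicate 3) to −0.0037 (Fmr1CRE replicate 1), with −0.036 and −0.041 without wild-type replicates 1 and 2.

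In hindbrain, the smallest p-values belonged to *Mfge8* and *Slc4a4*. *Mfge8* measured 26.9, 25.4 and 29.3 CPM in Fmr1CRE and 30.4, 35.5 and 31.1 in wild type (log2 −0.26, SE 0.12, unadjusted p = 0.066, adjusted p = 0.87 in edgeR), the only gene of the 32 without overlap (10.9% of all genes, 5.69% lower in Fmr1CRE). *Slc4a4* measured 187.6, 288.7 and 223.5 CPM in Fmr1CRE and 176.9, 186.5 and 196.0 in wild type (log2 0.31, SE 0.15, and 0.14 without Fmr1CRE replicate 2), and the genotypes overlapped. Of the 32, 15 were below 0 (51.7% of all genes), and the median was 0.0086, with a range from −0.037 to 0.050 over single libraries left out. With the 3 regions of a mouse summed, *Vim* (log2 −0.20), *Etnppl* (−0.45), *Gjb6* (−0.25) and *S100b* (−0.22) were at an unadjusted p under 0.05, all lower in Fmr1CRE (1.76% of all genes). Of the 32, 23 were below 0 (49.8% of all genes), and the median was −0.077, or −0.038 without Fmr1CRE replicate 1.

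**Figure D4:**
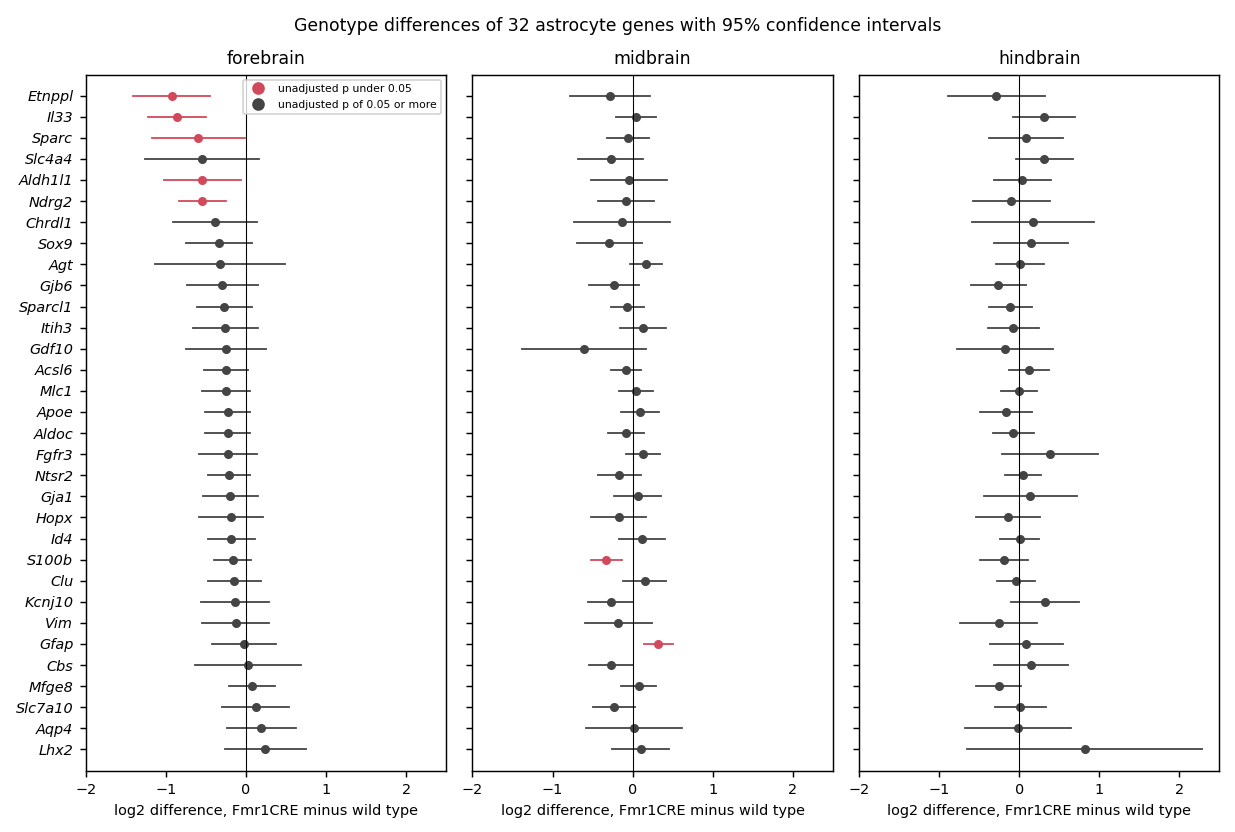
Log2 difference between Fmr1CRE and wild type for each of the 32 astrocyte genes in each region, with 95% confidence intervals from edgeR fits of 6 libraries, red where the unadjusted p was under 0.05. In forebrain 27 of 32 points lie below 0, and the 5 red points are *Etnppl*, *Il33*, *Sparc*, *Aldh1l1* and *Ndrg2*.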

How the data were processed

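Poly(A) RNA was sequenced as single-end reads of 50 bases from 3 regions of 6 mice. The authors mapped reads to transcripts with Salmon 0.14.0 (per the submitters' processing notes, build mm10) and deposited gene counts, which are whole estimated read numbers and not normalized, and transcript tables with TPM. TPM values, as deposited, were used only to weight transcript lengths, averaged over all 18 transcript files, since the titles of some sample records do not match their transcript file. Counts were tested as deposited. Symbols came from GENCODE M21 (53431 of 53468 genes, and the other 37 genes held 0.0151% of counts).

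Counts were scaled by TMM, filtered with edgeR's default and tested with the quasi-likelihood test of edgeR 4.0.16 (R 4.3.3), with Benjamini-Hochberg adjustment over all genes tested. Region contrasts came from 1 fit of 18 libraries with 6 groups, and genotype contrasts from 6 libraries of a region or 6 mice with summed counts. Standard errors and intervals are from the same fits. DESeq2 1.42.0, other scalings and filters, the mouse as a block, single genotypes and leaving out each library were alternatives. The fits were tested on simulated counts. Between forebrain and hindbrain 122 of 193 genes changed 2-fold were called (63.2%, with 5 false calls among 19951 genes), and between genotypes in midbrain 110 of 186 genes changed 2.83-fold (59.1%, with 3 false calls among 18830 genes). The criteria for this test, few false calls and unbiased log2 values, were set after that recovery was seen, so a gene that changed may not be called.

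By title, a replicate number within a genotype is 1 mouse, which pairs its regions. Same-mouse libraries of different regions correlated between −0.17 and 0.178 in their deviations from group means. With the mouse as a block, forebrain against hindbrain lost *Aldh1l1* and gained *Gjb6*, and midbrain against hindbrain lost *Il33* and gained *Gjb6*. The replicates are different mice, but the 3 regions of a mouse were taken as independent in the fit of 18.

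The members and lists were chosen with earlier results of these data known. Genes described library by library are those with a 2-fold call between regions, the 2 smallest p-values between genotypes in each region and the 3 highest levels per length. Of the other lists only counts, medians and genes among the 4 largest 2-fold calls are given, apart from markers whose levels stand beside a result. A shortened copy of a transformed table was not used, and 0 columns of measured values were left unmapped. Some region markers are not reported here.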

Additional observations from a re-analysis of the deposited data

Results flagged for a closer look

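In 7 of 96 groups of 6 libraries (32 genes in 3 regions), the gap between an end library and its neighbour exceeded Dixon's critical share of the range, where chance gives about 1 in 20. All 7 were Fmr1CRE libraries. Fmr1CRE hindbrain replicate 1 was high for *Lhx2*, at 2.52 CPM against 0.505 to 0.870 in the other 5, and low for *Sparcl1*, at 2164 CPM against 2522 to 2715. Fmr1CRE hindbrain replicate 2 was high for *Kcnj10*, at 620.3 CPM against 330.1 to 425.9. Fmr1CRE midbrain replicate 2 was high for *Id4*, at 127.4 CPM against 101.6 or less, and for *Mfge8*, at 104.3 CPM against 86.9 to 92.9. Fmr1CRE forebrain replicate 1 was low for *Id4*, at 101.7 CPM against 138.4 to 148.9. Fmr1CRE forebrain replicate 3, of which the label was in doubt, was high for *Aqp4*, at 236.4 CPM against 134.9 to 167.1.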

How the results depend on the processing

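Between forebrain and hindbrain, all 12 genes at least 2-fold apart kept their direction under every alternative run. The count of the 32 called was 20 to 24 with any library left out (20 without wild-type forebrain replicate 1 or wild-type hindbrain replicate 1). *Ndrg2*, *Etnppl* and *Aldh1l1* were the calls lost there. The same 3 were lost without Fmr1CRE hindbrain replicate 3, where *Gjb6* was gained and 21 were called. *Ndrg2* and *Etnppl* were also lost without Fmr1CRE forebrain replicate 1, *Ndrg2* without wild-type forebrain or hindbrain replicate 2 and *Etnppl* without Fmr1CRE hindbrain replicate 2. *Aldh1l1* was also lost without Fmr1CRE forebrain replicate 2 or 3, wild-type forebrain replicate 3, Fmr1CRE hindbrain replicate 1 or wild-type hindbrain replicate 3. Of the 23 genes called, *Il33* changed sign, at 0.048 with wild-type libraries alone. The other genes that changed sign were not called. With total counts alone, *Gja1* was −0.068, *Ntsr2* −0.095, *Acsl6* −0.060 and *Mlc1* −0.016. With Fmr1CRE libraries alone, *Gja1* was −0.15, *Fgfr3* −0.20, *Slc4a4* −0.19, *Ntsr2* −0.14, *Acsl6* −0.16 and *Mlc1* −0.050. Without both forebrain libraries labelled replicate 3, *Ntsr2* was −0.031, *Cbs* −0.046 and *Acsl6* −0.010. With single libraries left out *Gja1* ran from −0.019 to 0.23. The cause was not tested.

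Counts moved with fewer samples or fewer genes tested. Fmr1CRE libraries alone called 6178 genes between forebrain and hindbrain, 527 between forebrain and midbrain (280 at 2-fold, 2 of the 32 genes and 1 at 2-fold) and 4847 between midbrain and hindbrain (1956 at 2-fold). Wild-type libraries alone called 1729 between forebrain and midbrain and 6 of the 32. With at least 10 counts in every library, 2-fold calls numbered 2205, 332 and 1537 for forebrain against hindbrain, forebrain against midbrain and midbrain against hindbrain. Total counts alone called 4349 genes higher and 6819 lower between forebrain and hindbrain (5383 and 5147 with TMM), and 1391 and 2926 between forebrain and midbrain (1911 and 2028), with the median of all genes at −0.15 and −0.036.

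Between genotypes, DESeq2 called 31 genes in forebrain (2 of the 32), 62 in midbrain (1 of the 32), 59 in hindbrain and 26 in the sum. Without a filter, 11 were called in midbrain, 11 in hindbrain and 4 in the sum. With at least 10 counts, 0 were called in midbrain. 1 fit of all libraries called 1 gene in forebrain, 0 in midbrain and 1 in hindbrain. Leaving out 1 library gave 0 to 4 genes in midbrain, 0 to 5 in hindbrain and 0 in the sum (0 to 0). Numbers shared between genotypes mark different mice, and deviations of same-numbered libraries correlated between −0.12 and 0.0693, so the replicate block between genotypes uses only a number (4 of 18 libraries correlated best with their own number). With this pairing 0 genes were called in the sum, and the 1 gene called in midbrain was higher in Fmr1CRE, where the 1 called without it was lower. At an unadjusted p under 0.05, 4 of the 32 were found in midbrain (2 without the block, 4.73% of all genes with it), and for the interaction, with the mouse as a block, also 4 (2 without). The interaction called 131 genes without both mice numbered 3, of which 1 was among the 32 (*Il33*). With 3 libraries a group, a gene that was not called may still differ.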
